A study of Homo sapiens with 12 samples.

Results

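A549 lung adenocarcinoma cells that had received TGF-β1 together with sodium acetate were compared with untreated A549 cells. The comparison used 8 of the 12 libraries of the study, 4 a side, and every gene listed in both deposited tables, which came to 23771 of the 25433 genes found in either. The treated cells had 10 ng/mL TGF-β1 and 40 mM sodium acetate for 2 days, and the control cells had neither. The remaining 4 libraries, from cells that had TGF-β1 alone at the same dose and for the same time, entered the same fit and are given beside the results. All cells were of 1 tumour line, grown in Ham's F-12K medium with serum. Total RNA was depleted of ribosomal RNA and made into stranded libraries.

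The count columns carry codes (S1 to S4, S15 to S18, S22 to S25) that match no sample label. Each set of 4 was placed in its group from the names and the arrangement of the tables, and every value below rests on that placement. Whether the 4 libraries of a group are separate cultures is not labelled, and the p-values then cover a spread that may be technical. Acetate was given in no library without TGF-β1, and extra sodium was added in none without acetate. The parts of acetate, its sodium load and the osmolarity of the medium cannot be told apart.

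TGF-β1 binds a pair of receptor kinases that activate SMAD transcription factors. In lung epithelial cells it drives epithelial-mesenchymal transition, in which junction genes such as CDH1 are silenced and matrix, integrin and contractile genes are switched on. Acetate enters cells through monocarboxylate transporters and is joined to coenzyme A by ACSS1 and ACSS2, which feeds fatty acid and sterol synthesis and the acetylation of histones. A549 cells carry a defect in KEAP1 that keeps the transcription factor NRF2 active, so NRF2 target genes are high in untreated cells.

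Library totals over the shared genes ran from 38393181 to 53045899 counts in control and from 34689255 to 41564965 with both agents. At these depths 3 counts equal 0.0566 to 0.0865 CPM (counts scaled to the library total, with TMM factors), a floor that covers counting error only. Small RNA genes took 6.00 to 7.76% of the counts in control and 4.68 to 5.71% with both agents, and cytosolic ribosomal protein genes took 4.09 to 4.15% and 3.33 to 3.59%. The groups did not overlap in either share. No library differed from another of its group by so little as to be a duplicate. The epithelial keratin KRT8 held 2250 ± 78.0 CPM in control and 2525 ± 169 with both agents, and KRT18 had means of 1955 and 1840 CPM. Both keratins were thus abundant in both groups. They belong to 12 tested markers of the line, of which 5 were higher and 6 lower with both agents. Whether the treated cells kept an epithelial identity was not tested.

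After both agents the cells did not return to the control profile. On the first principal component of log2 CPM, which held 59.0% of the variance, control libraries lay between -94.6 and -89.5, TGF-β1 libraries between 41.1 and 45.0, and libraries with both agents between 45.6 and 51.7. The second component held 26.6% of the variance and parted both treatments, with TGF-β1 at -56.8 to -52.4, control at 0.604 to 5.46 and both agents at 50.7 to 53.3. The cells with both agents were thus as far from control as those with TGF-β1 along the first axis, and on the other side of control along the second.

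**Figure D1:**
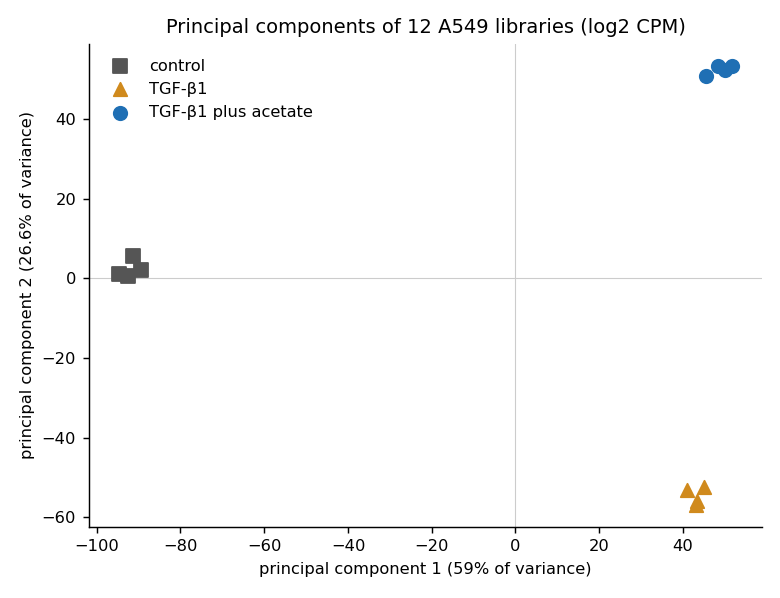
Each point is 1 of the 12 A549 libraries, placed by its first (59.0% of variance) and second (26.6%) principal component of log2 CPM. The 4 libraries with both agents lie at 45.6 to 51.7 on the first axis, beside TGF-β1 and far from control, and at 50.7 to 53.3 on the second, apart from both other groups.

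Of 22742 genes that passed the filter on low counts, 16051 (70.6%) differed from control at an edgeR adjusted p below 0.05, 8221 higher (36.1%) and 7830 lower (34.4%). Which direction had more genes depended on the scaling: it was 7750 higher and 7938 lower with DESeq2, and 8741 and 7237 with library totals. The libraries of both groups did not overlap in 64.0% of genes, and in 39.7% the 95% interval of the difference lay within 1.5-fold of control. The median log2 fold change over all tested genes was 0.02. Changes of at least 2-fold, found in 4508 genes (19.8%), were less even: 3263 genes (14.3%) were higher and 1245 (5.47%) lower, and at 4-fold the counts were 1181 (5.19%) and 213 (0.937%). Of the 6691 genes that did not pass the test, 3572 had a 95% interval that lay within 1.5-fold of control. Every list below is read against these shares: a list with about 36.1% of its members higher and 34.4% lower looks like the genes at large. A gene that passed the filter only through the group in which it was high had to differ, so counts over tested members are descriptions.

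Short stretches of promoters of 3 groups of genes that lay below control are printed first, for some of the members whose promoter held the known element searched for in that group. Promoter sequences are RefSeq's, build GRCh38.p14, read on the strand of the gene over the 250 bases before the start site, and each motif was searched on both strands. Capitals mark the match. The amino acid response element bound by ATF4 and its partners was searched as TGATGNAA. It occurred in 4 of 29 matched ATF4 target genes (13.8%), against 1.53% of the 11607 promoters of tested protein-coding genes.

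ASNS: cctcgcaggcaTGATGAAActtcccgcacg
CHAC1: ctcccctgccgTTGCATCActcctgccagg
AARS: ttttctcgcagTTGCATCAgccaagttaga
ATF3: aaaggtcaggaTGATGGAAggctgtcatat

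The first base of the capitals lies 68 bases before the start site in ASNS (window at chr7:97872458-97872487, minus strand), 209 in CHAC1 (chr15:40953251-40953280, plus strand), 187 in AARS (chr16:70289675-70289704, minus strand) and 191 in ATF3 (chr1:212565205-212565234, plus strand). For NRF2 targets the core of the antioxidant response element was searched as TGACNNNGC. It was found in 8 of 25 matched promoters (32%), against 11.7% of all. All 8 genes lay below control, as did 34 of the 38 tested members of the whole list. Their log2 fold changes ran from -0.23 (CBR1) to -3.31 (CYP4F11). Of these, 4 are printed as examples, of enzymes of glutathione, thioredoxin and NADPH metabolism.

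GPX2: acctgtttttGCTAAGTCAtcctggggatg
GCLM: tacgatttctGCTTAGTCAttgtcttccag
TXNRD1: acacgggctaTGACTTCGCtgttgtcaccg
ME1: tctcctgccaTGACTCAGCgcttctcgcag

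These windows are chr14:64942848-64942877 (GPX2, minus strand), chr1:93909445-93909474 (GCLM, minus), chr12:104215670-104215699 (TXNRD1, plus) and chr6:83431169-83431198 (ME1, minus). For histone genes the octamer ATTTGCAT, a known element of H2A and H2B promoters, was present in 18 of 34 matched promoters (52.9%), against 1.42% of all. The 18 matches fell on 11 distinct sites, mostly because H2A and H2B genes are often transcribed away from each other from a shared stretch. HIST1H2AD and HIST1H3D shared a site on the same strand. HIST1H2BM (RefSeq H2BC14, chr6:27814772-27815021, plus strand) is shown over the whole window, with the octamer 48 bases before the start, next to a divergent pair that reads 1 site from both strands (chr6:26124031-26124060).

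HIST1H2BM: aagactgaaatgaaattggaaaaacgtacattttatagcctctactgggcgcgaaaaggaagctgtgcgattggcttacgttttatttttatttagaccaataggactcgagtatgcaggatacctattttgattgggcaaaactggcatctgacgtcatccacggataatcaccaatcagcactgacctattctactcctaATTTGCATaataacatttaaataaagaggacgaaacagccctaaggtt
HIST1H2BC: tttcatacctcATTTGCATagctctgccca
HIST1H2AC: tgggcagagctATGCAAATgaggtatgaaa

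Elements were also searched in lists that did not lie below control. The E-box CAGGTG of SNAI and ZEB factors stood in 8 of 24 matched epithelial junction promoters (33.3%, against 16% of all). Genes with it went both ways, as DSC2 (log2 fold change 1.96) and ELF3 (-0.87) show. The sterol response element core TCACNCCAC stood in 1 of 18 matched cholesterol gene promoters (5.56%, against 0.836%). A match is a string of letters, not a shown binding site. The ATF4 and NRF2 lists hold known targets of those factors, so an excess of the element may come from the choice of members. Whether the elements bear on the levels seen here was not tested.

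SMAD target genes stayed above control. In that list 18 of 25 tested genes were higher and 4 lower, with a median log2 fold change of 0.81 (1.02 with TGF-β1 alone). TGFBI, a secreted matrix protein induced by TGF-β, held 1367, 1303, 1283 and 1359 CPM in the control libraries and 12145, 11731, 12642 and 12194 with both agents. Every treated library lay far above every control library, with a log2 fold change of 3.20 ± 0.03 (SE; edgeR adjusted p = 4.41e-22). SMAD7, the inhibitory SMAD of the feedback loop, had a log2 fold change of 0.98. The BMP-type targets ID1 (-1.17) and ID2 (-1.78) were among the 4 that fell.

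The mesenchymal genes stayed above control as a list: 27 of 29 were higher and none lower, with a median of 1.85 (2.08 with TGF-β1). In 2 of the 29 the interval of the difference lay within 1.5-fold of control. Their summed level ran from 2692 to 2966 CPM in control, 8855 to 9176 with TGF-β1 and 7013 to 7383 with both agents. FN1, which encodes fibronectin, stood at 379, 460, 383 and 380 CPM in control and at 1701, 1601, 1524 and 1651 with both agents (log2 fold change 2.02). CDH2 (N-cadherin) and VIM (vimentin) had log2 fold changes of 1.22 and 0.94. The EMT transcription factors differed among themselves: SNAI2 (2.00) and SNAI1 (1.85) were well above control, whereas ZEB1, a repressor of CDH1, had gone from 47.3 ± 0.432 to 52.2 ± 0.749 CPM, a log2 fold change of 0.14 (edgeR adjusted p = 0.00227). TWIST1 and THBS2 did not pass the test.

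Several matrix genes were high with both agents at levels that TGF-β1 alone did not give. TNC, which encodes tenascin C, a matrix protein of wounds and tumour stroma, held 6.74, 6.12, 5.70 and 6.13 CPM in control, 6.20, 5.96, 5.74 and 6.33 with TGF-β1, and 67.5, 64.6, 65.2 and 67.6 with both agents. Control and TGF-β1 libraries overlapped, and the libraries with both agents stood apart from them (log2 fold change against control 3.42 ± 0.06 SE, edgeR adjusted p = 2.19e-20). NID2, a basement membrane linker, behaved alike, with 6.51 to 7.25 CPM in control, 6.02 to 7.53 with TGF-β1 and 45.4 to 47.9 with both. SPARC, a collagen-binding glycoprotein, was at 7.45, 5.98, 6.21 and 6.90 CPM in control, 29.2 to 31.0 with TGF-β1, and 197, 192, 199 and 186 with both agents. The collagen VI chains COL6A1 (13.5 ± 0.635 CPM in control, 17.5 ± 1.31 with TGF-β1, 60.2 ± 4.11 with both) and COL6A2 (6.77 ± 0.476, 13.7 ± 1.40 and 57.7 ± 2.40) had the same order.

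Among collagen chain genes 20 of 25 were higher and 1 lower, with a median log2 fold change of 2.28 against 1.56 with TGF-β1. COL1A1, the main chain of fibrillar collagen, rose from 9.08 ± 0.854 to 250 ± 40.1 CPM, while COL4A6 was the 1 that fell (-0.61) and COL12A1 stayed at a log2 fold change of 0.02. Matrix proteases and their inhibitors had 21 of 24 higher (median 1.86), led by TIMP3 (6.34), MMP10 (5.13), MMP1 (4.84) and MMP2 (4.50); MMP24, MMP7 and ADAM17 fell. MMP1 was scarce, at 0.0571 ± 0.0434 CPM in control, near the counting floor, and 1.73 ± 0.140 with both agents. Integrin genes had 16 of 21 higher (median 1.27, against 0.35 with TGF-β1), and ITGB2 was lower (-1.63). ITGA11 did not follow the order of these medians. It stood at 9.77 ± 1.01 CPM in control, 283 ± 6.27 with TGF-β1 and 131.5 ± 7.12 with both agents. Among laminin and basement membrane genes 12 of 16 were higher.

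Actin and contractile genes had 25 of 31 higher and 3 lower (median 0.66, against 0.83 with TGF-β1). TPM1, a tropomyosin, stood at 504 to 528 CPM in control, 2781 to 2865 with TGF-β1 and 1866 to 2119 with both agents. TAGLN, a smooth muscle actin binder, ranged from 8.21 to 10.9 CPM in control, 235 to 271 with TGF-β1 and 92.7 to 104 with both. CNN1 (5.06) and FLNC (5.03) had the largest log2 fold changes of the list. YAP and TAZ targets were split, with 7 of 20 higher and 12 lower: CTGF (3.10) and NT5E (2.38) were higher, and ANKRD1 (-3.35), AJUBA (-2.10) and AMOTL2 (-1.41) were lower.

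**Figure D2:**
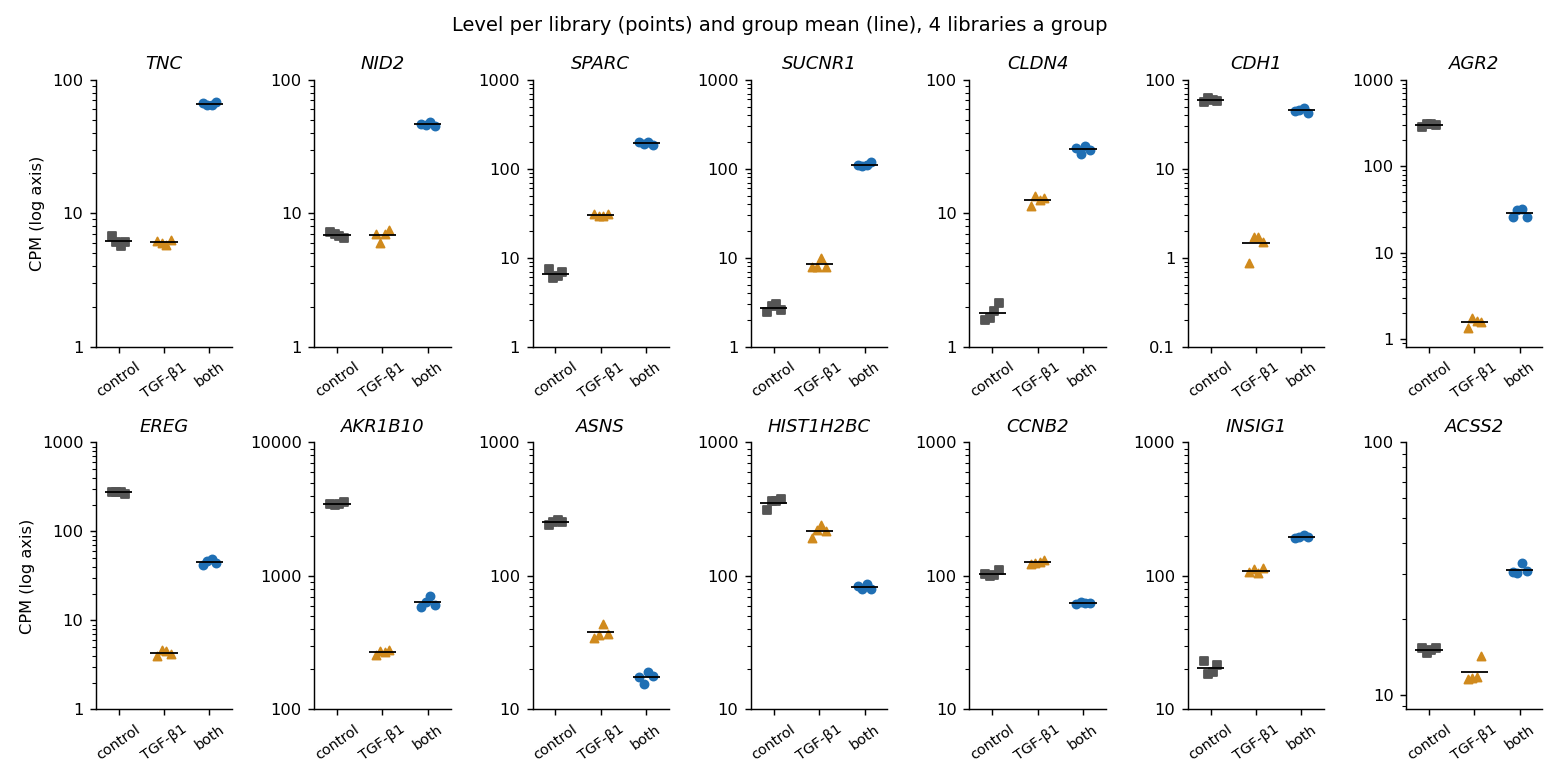
CPM on a log axis for 14 genes in control, TGF-β1 and TGF-β1 plus acetate ("both"); points are libraries (4 a group) and lines are group means. TNC and NID2 stand apart in the libraries with both agents (TNC 64.6 to 67.6 against 5.70 to 6.74 CPM in control), CDH1 lies close to control (42.5 to 48.7 against 55.6 to 62.3 CPM) and ASNS and HIST1H2BC lie lowest with both agents.

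The epithelial junction and identity list was split evenly. Of 41 tested genes 18 were higher and 15 lower, and the median was 0.03, against -1.05 with TGF-β1. CDH1, which encodes E-cadherin, the adhesion protein of epithelial junctions, held 55.6, 62.3, 59.0 and 57.8 CPM in control, 0.882 to 1.72 with TGF-β1, and 45.1, 45.8, 48.7 and 42.5 with both agents. The cells with both agents came close to control but did not reach it, since no treated library overlapped a control library; the log2 fold change was -0.37 ± 0.05 (SE; edgeR adjusted p = 3.84e-05) with a 95% interval from -0.48 to -0.25. EPCAM, an epithelial surface marker, was at 4.22 ± 0.327 CPM in control, 1.08 ± 0.224 with TGF-β1 and 5.63 ± 0.338 with both.

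Some junction genes exceeded control. CLDN4, a tight junction claudin, held 1.60, 1.63, 1.84 and 2.13 CPM in control, 11.3 to 13.4 with TGF-β1, and 30.9, 27.8, 31.8 and 29.9 with both agents (log2 fold change 4.06 ± 0.11 SE, edgeR adjusted p = 2.00e-18). JUP (plakoglobin, 1.96), F11R (the junction adhesion molecule JAM-A, 1.53), DSC2 (a desmosomal cadherin, 1.96), GRHL1 (2.39), PRSS8 (2.17) and SPINT1 (1.57) also rose. Others stayed low: PKP3 (-2.04), EHF (-1.79), CLDN1 (-1.56), CLDN7 (-1.53), LLGL2 (-1.25) and TJP3 (-1.16) fell. Across 8 genes, among them KRT18, ESRP1, ESRP2 and CLDN3, the difference did not pass the test.

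Of 19 tested lung epithelial and secretory genes 11 were lower than in control and 7 higher, with a median log2 fold change of -0.71. AGR2, a disulfide isomerase of mucus-secreting cells, held 286, 309, 309 and 298 CPM in control and 26.3, 31.5, 32.1 and 26.1 with both agents, well above the 1.35 to 1.77 of TGF-β1 and well below control. FGA, the fibrinogen alpha chain, stood at 68.6 to 72.7 CPM in control and 5.84 to 7.42 with both agents, and the mucins MUC5B (26.1 ± 4.83 to 0.883 ± 0.205 CPM) and MUC5AC (log2 fold change -5.32) and their regulator SPDEF (15.1 ± 0.390 to 0.521 ± 0.109 CPM) fell as well. ABCA3 (1.12), LPCAT1 (1.01) and LAMP3 (1.34) rose.

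A set of protein-coding genes had levels near control with both agents although TGF-β1 had moved them far; they were chosen for that pattern, so their values are a description. From the low side these were CDH1, C1orf116, PLEKHH2, ANK1, ARHGAP18 and SYNPO2. SYNPO2, an actin-associated protein, was at 19.0 to 22.3 CPM in control, 3.09 to 3.33 with TGF-β1 and 17.2 to 18.6 with both. From the high side they were ETS2, DZIP1L, TAGLN2, ZNF704, TOM1 and CREM. CREM, a cAMP-responsive transcription factor, was at 30.4 ± 0.775 CPM in control, 77.5 ± 1.87 with TGF-β1 and 32.3 ± 0.528 with both.

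Other genes crossed control. CKB, brain-type creatine kinase, held 25.4 to 26.8 CPM in control, 9.76 to 10.7 with TGF-β1 and 77.3 to 102 with both agents, and HPGD, which inactivates prostaglandins, held 188 to 211, 79.9 to 89.5 and 401 to 461. TNS4, AKR1B1, CD9 and SPINT2 had the same order. In the opposite direction IGFBP3, a carrier of insulin-like growth factors, held 194 to 218, 346 to 378 and 66.2 to 71.8 CPM, and NNMT, which methylates nicotinamide, held 183 to 198, 301 to 337 and 52.8 to 58.8. KCNE4, MCRIP1, CDKN2C and LMNB1 followed that order. These genes too were selected for the pattern.

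Single genes whose mean level reached the median rose by far more than the lists. R3HDML (chromosome 20, 44336986 to 44351235) held 0.573, 0.633, 0.587 and 0.583 CPM in control and 108, 102, 108 and 101 with both agents, a log2 fold change of 7.45 ± 0.14 (SE; edgeR adjusted p = 1.02e-23). It overlaps the antisense gene RP5-881L22.5, which rose with it (6.82), and the strand setting of the counting is not given in the sources used here, so reads of the pair may be shared. IGFBP5 (chromosome 2, 216672105 to 216695525) rose from 1.05 to 1.35 CPM in control to 185 to 213, and the pentraxin NPTX1 from 9.01 to 10.6 to 569 to 697. The chorionic gonadotropin genes CGB5 and CGB8, which are near-identical copies, COL22A1, IGFL3, SEMA7A, WNT5B, SLN, CDH11 and MYOCD completed the 12 largest. Under the same condition on the mean level over all 12 libraries, the 12 largest falls were HIST1H2BH, CYP4F3, CXCL2, ALDH3A1, OSGIN1, TM4SF20, ASNS, CXCL5, TRIB3, PPFIBP2, PER2 and FGA. Some genes under that level fell further than most of these, such as CHAC1 (-4.56). PER2, a repressor of the circadian clock, stood at 41.6 to 44.4 CPM in control and 3.29 to 4.00 with both agents.

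The EGF receptor ligands epiregulin and amphiregulin were below control. EREG, which encodes epiregulin, held 276, 279, 280 and 266 CPM in control and 41.9, 46.5, 48.6 and 44.7 with both agents (4.02 to 4.68 with TGF-β1), with a log2 fold change of -2.60 ± 0.04 (SE; edgeR adjusted p = 1.66e-19). AREG (amphiregulin) fell from 65.8 ± 4.47 to 5.93 ± 0.493 CPM, above the 0.425 ± 0.153 of TGF-β1 alone, whereas HBEGF (1.45) and the receptor EGFR (0.94) rose. The ERK feedback genes DUSP6 (-1.41), DUSP5 (-1.33) and SPRY1 (-1.77) fell. In the whole list 8 of 23 were higher and 12 lower.

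EREG, AREG and BTC lie beside the CXC chemokine genes on chromosome 4, between 73740506 and 74794686. All 11 tested genes of that interval were at least 2-fold lower, against 5.47% of all genes and 9.62% of protein-coding genes on chromosome 4. Of the 11, 10 were protein-coding and the other was antisense to MTHFD2L, so reads of that pair may be shared. The interval was singled out after its values were seen, with its ends set at CXCL8 and BTC, which were both lower. CXCL5 (319.6 ± 20.6 to 22.3 ± 2.56 CPM), CXCL1 (67.0 ± 3.93 to 13.4 ± 1.71) and CXCL2 (33.7 ± 1.45 to 1.62 ± 0.231), which attract neutrophils, were the most abundant chemokines there in control. In the NF-kB and inflammatory list 17 of 21 were lower and 4 higher (median -0.71): PTGS2, the inducible cyclooxygenase, fell from 112 to 125 CPM in control to 16.5 to 20.2, and IL11 (2.41), IL1A (2.47), CCL2 (1.97) and NFKBIZ (1.87) were the 4 that rose.

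NRF2 target genes remained low, with 34 of 38 lower, 4 higher and a median of -1.27 (-1.502 with TGF-β1). AKR1B10, an aldo-keto reductase abundant in untreated A549 cells, held 3487, 3394, 3469 and 3587 CPM in control, 255 to 278 with TGF-β1, and 582, 639, 711 and 604 with both agents. ALDH3A1, an aldehyde dehydrogenase, stood at 844 to 926 CPM in control and 40.9 to 48.3 with both (log2 fold change -4.32 ± 0.05 SE, edgeR adjusted p = 4.04e-21). GPX2, a glutathione peroxidase, stood at 206 to 228, 3.62 to 4.16 and 21.2 to 33.6 CPM in control, TGF-β1 and both. The glutathione genes GCLC (-1.61), GCLM (-1.39) and SLC7A11 (-1.75), the thioredoxin reductase TXNRD1 (-0.91) and the ferritin chains FTH1 (-1.70) and FTL (-1.83) fell, and HMOX1 (0.28), CBR3, PANX2 and UGT1A6 were the 4 that rose. Members of the AKR1 and UGT1A families share sequence, so their separate values are uncertain.

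ATF4 target genes, the programme of amino acid shortage, lay below control as a body: 33 of 34 were lower, none higher, and 25 were at least 2-fold lower (5.47% of all genes). The median was -1.66, against -1.47 with TGF-β1. ASNS, asparagine synthetase, whose element is printed above, held 239, 252, 262 and 252 CPM in control, 34.4 to 43.6 with TGF-β1, and 17.5, 15.4, 19.2 and 17.7 with both agents, a log2 fold change of -3.85 ± 0.07 (SE; edgeR adjusted p = 3.11e-19). TRIB3, a pseudokinase that feeds back on ATF4, stood at 595 to 714 CPM in control and 45.5 to 50.1 with both. CHAC1, which degrades glutathione, went from 23.2 ± 1.42 to 0.985 ± 0.114 CPM, and NUPR1 from 24.8 ± 3.12 to 0.693 ± 0.0526. The serine synthesis genes PHGDH (-2.19), PSAT1 (-2.44) and PSPH (-1.59), the mitochondrial folate enzyme MTHFD2 (-2.82) and the tRNA synthetases AARS (-1.77), GARS (-1.63) and CARS (-1.40) fell with them, and SLC38A2, a neutral amino acid carrier, did not pass (0.02).

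Histone genes were the list farthest below control. All 39 tested replication-dependent histone genes were lower, 36 of them at least 2-fold, with a median of -1.96 (-0.83 with TGF-β1). HIST1H2BC held 313, 362, 361 and 376 CPM in control, 193 to 240 with TGF-β1, and 84.3, 79.3, 86.3 and 80.0 with both agents, without overlap. HIST1H2BM held 89.8, 100, 101 and 105 CPM in control and 28.9 to 30.1 with both. The octamer stood in 7 of 8 matched H2A and 10 of 12 H2B promoters, 1 of 6 H3 and none of 4 H4 and 4 H1 promoters. The H3 match, in HIST1H3D, had the same window, strand and sequence as that of HIST1H2AD, so it is not a separate site. The median log2 fold change was -2.01 in the 21 H2A and H2B genes and -1.93 in the 18 H1, H3 and H4 genes. Histone genes exist in near-identical copies, so the list is better read as a whole than gene by gene; HIST1H2BH, with the largest fall of all named genes (-5.91), ranged from 10.2 to 30.1 CPM within control.

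Mitotic genes moved together by small amounts: 30 of 34 were lower, 1 higher, with a median of -0.43 where TGF-β1 alone gave 0.23. CCNB2, a mitotic cyclin, held 103, 100, 102 and 110 CPM in control, 123 to 131 with TGF-β1 and 62.1, 63.5, 62.5 and 62.6 with both (log2 fold change -0.73 ± 0.04 SE, edgeR adjusted p = 7.35e-13). ECT2 (-1.13) was the only member past 2-fold, DLGAP5 (0.16) was the 1 that rose, and CDK1 (0.06) did not pass. Among G1/S and replication genes 22 of 33 were lower and 6 higher (median -0.20, against 0.39 with TGF-β1), with E2F8 at -1.79, RRM2 at -0.88 and CDC45 at -0.84, and CCNE1 (1.07) and FEN1 (1.05) higher. CDK inhibitor and p53 target genes had 16 of 25 higher and 7 lower, among them CDKN1A (0.75), CDKN1C (2.11), TP53INP1 (1.70) and the cyclin CCND2 (2.90). In bulk RNA, fewer cells expressing a gene and less RNA per cell cannot be told apart.

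Cytosolic ribosomal protein genes were lower in 63 of 77 cases and higher in 2, by a median of -0.32, where the same genes had a median of 0.26 with TGF-β1. RPS12 held 407, 415, 413 and 408 CPM in control and 236, 242, 241 and 227 with both agents, the smallest p of the list. In 68 of the 77 the 95% interval lay within 1.5-fold of control. Many processed copies of these genes exist, so single values are uncertain.

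**Figure D3:**
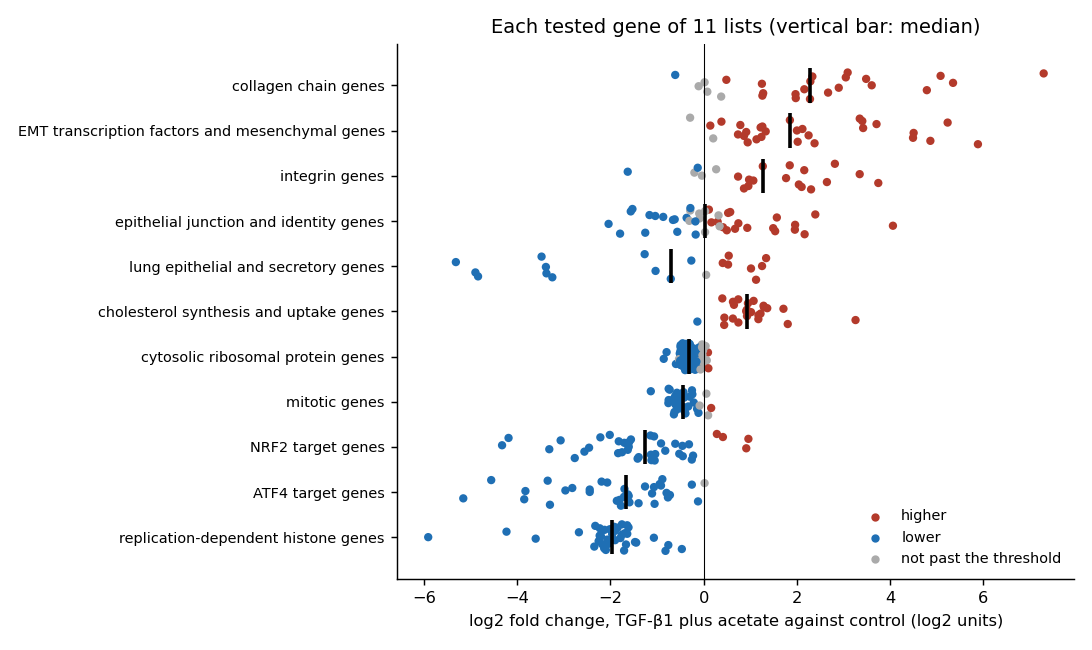
Log2 fold change of each tested gene in 11 lists, TGF-β1 plus acetate against control; red and blue points passed the test, grey points did not, and bars are medians. All 39 histone genes lie left of 0, 27 of 29 mesenchymal genes lie right of it and passed, and the epithelial junction list straddles 0 (18 higher, 15 lower).

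Cholesterol genes were above control. In that list 23 of 24 were higher, with a median of 0.94 (0.39 with TGF-β1), and PMVK (-0.14) was lower. INSIG1, a sterol sensor that is itself an SREBP target, held 23.1, 18.4, 19.0 and 21.7 CPM in control, 105 to 114 with TGF-β1, and 192, 196, 202 and 196 with both agents (log2 fold change 3.26 ± 0.06 SE, edgeR adjusted p = 2.66e-19). MSMO1 (1.80) and LSS (1.22) rose by less. Fatty acid synthesis genes had 17 of 24 higher and 3 lower, with FASN at 223 to 262 CPM in control and 495 to 607 with both, SCD at 0.76 and the transcription factor SREBF1 at -0.24.

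The genes of acetate use did not move as a body, with 7 of 22 higher and 12 lower. ACSS2, the nuclear and cytosolic acetyl-CoA synthetase, held 15.3, 14.6, 15.1 and 15.3 CPM in control, 11.5 to 14.3 with TGF-β1 and 30.6, 30.4, 33.2 and 31.0 with both agents, a log2 fold change of 1.05 ± 0.06 (SE; edgeR adjusted p = 4.60e-12). ACLY, which makes acetyl-CoA from citrate, rose (0.55), as did the monocarboxylate transporter SLC16A3 (48.7 ± 2.18 to 126 ± 8.65 CPM). The mitochondrial synthetase ACSS1 (-0.33), the transporter SLC16A1 (-0.19) and the deacetylase SIRT1 (55.5 to 57.9 against 20.1 to 22.6 CPM) fell. Of 31 genes of histone acetylation 10 were higher, led by HDAC5 (1.75), and 16 lower, among them CREBBP (-0.94), KAT6B (-0.88) and EP300 (-0.49).

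In central metabolism the lists lay near 0, with single genes far out. SUCNR1, the succinate receptor, held 2.48, 2.88, 3.04 and 2.60 CPM in control, 7.82 to 10.0 with TGF-β1, and 109, 108, 109 and 120 with both agents (log2 fold change 5.35 ± 0.10 SE, edgeR adjusted p = 2.10e-20). PCK2, a mitochondrial enzyme and known ATF4 target, fell (-3.05). Glycolysis genes had 8 of 21 higher and 10 lower: the glucose transporter SLC2A3 (37.8 ± 3.10 to 301 ± 7.30 CPM), PFKFB4 and HK1 rose, while GAPDH (-0.95), ALDOA (-0.90) and LDHA (-0.47) fell. Of 37 nuclear oxidative phosphorylation genes none passed 2-fold, and 32 had an interval within 1.5-fold of control.

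The medium with both agents held added sodium. Among osmotic stress genes 14 of 24 were higher and 6 lower: the water channel AQP1 (0.396 ± 0.0657 to 10.5 ± 0.880 CPM), the betaine transporter SLC6A12 (0.312 ± 0.0846 to 3.28 ± 0.539) and the aldose reductase AKR1B1 (1104 ± 55.7 to 2177 ± 175) rose, NFAT5, the main osmosensitive transcription factor, did not pass (-0.14), and SLC12A2 (-1.60) and AQP3 (-2.03) fell. HSPA1A (2.56) and HSPA1B (2.06) are near-identical copies. The cytosolic chaperones HSPA8 (1.73), DNAJB1 (1.31) and HSPB8 (2.25) rose, and several chaperonin subunits fell slightly, so that 12 of 22 heat shock genes were higher and 6 lower. With TGF-β1 alone 20 of these 22 were higher than in control and 0 lower. The median was 0.60 with TGF-β1 and 0.16 with both agents. Of the unfolded protein response genes, XBP1 (-1.55), ERN1 (-2.35) and PPP1R15A (-2.15) fell, whereas CALR (1.08), MANF (1.03) and CREB3L1 (4.20) rose.

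Interferon response genes were divided, 11 of 25 higher and 11 lower: OASL (3.69), IFI44 (3.28), IFI44L (2.78) and IFIT1 (2.42) rose, and IFITM2 (-1.83) and IFITM3 (-1.56) fell. Antigen presentation and checkpoint genes had 16 of 25 higher and 7 lower. HLA-B held 6.10 to 7.71 CPM in control, 10.7 to 11.7 with TGF-β1 and 25.9 to 31.0 with both agents, and CD274, which encodes PD-L1, held 1.55 to 2.03, 2.08 to 2.77 and 4.54 to 5.403. HLA genes are alike in sequence. The immunoproteasome subunits PSMB8 (-0.85) and PSMB9 (-0.60) fell.

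**Figure D4:**
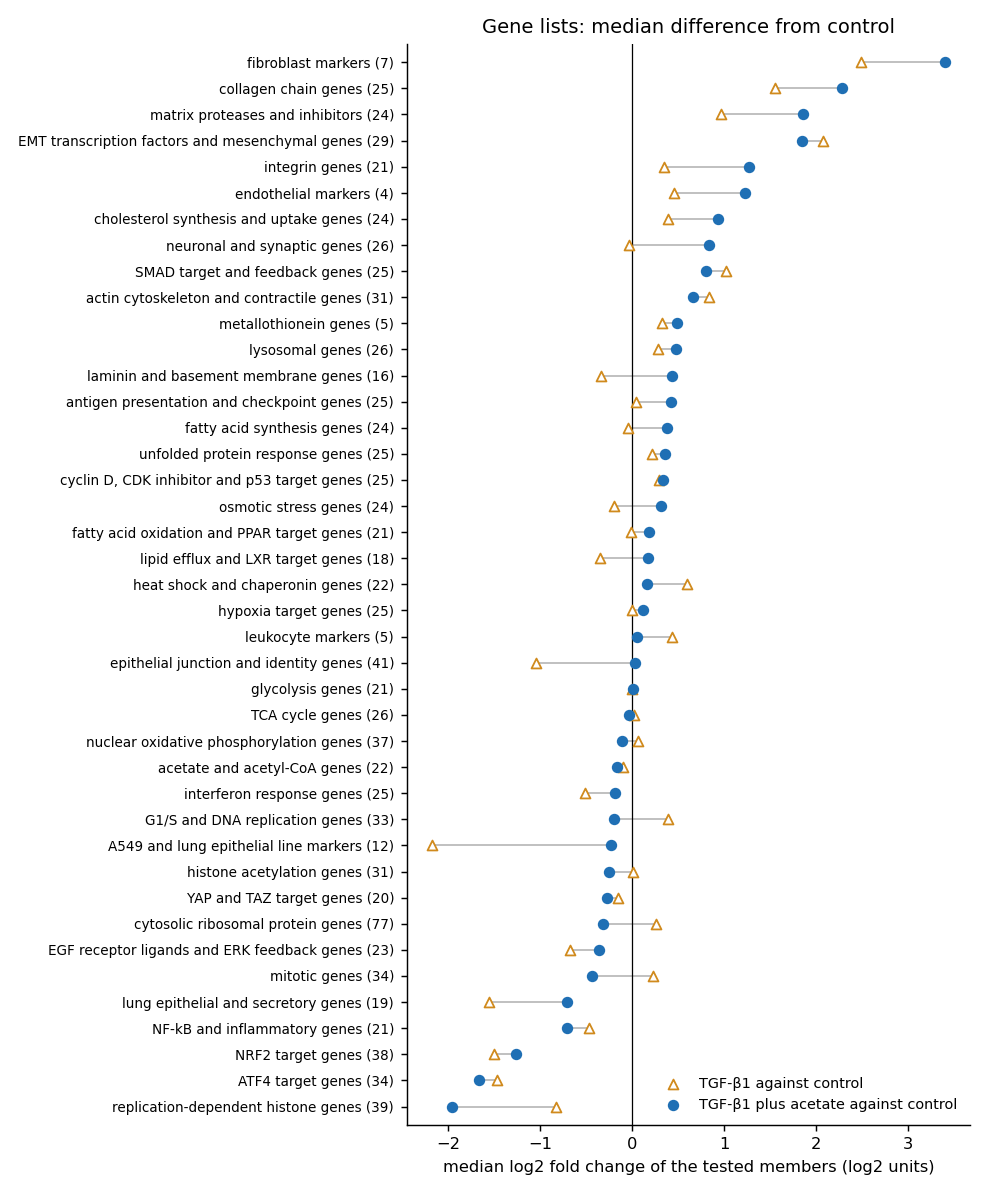
Median log2 fold change of the tested members of 41 lists (number in brackets) for TGF-β1 plus acetate (filled circles) and TGF-β1 (open triangles), each against the same 4 control libraries. With both agents the lowest median is that of the histone genes (-1.96), and the epithelial junction list lies at 0.03.

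Markers of other cell types were checked because the mesenchymal genes overlap with those of fibroblasts. All 7 of 10 fibroblast markers that could be tested were higher (median 3.40). Their summed level ran from 5.22 to 5.82 CPM in control, 16.4 to 19.6 with TGF-β1 and 62.7 to 69.1 with both agents. THY1 (4.35 ± 0.313 to 44.4 ± 2.60) and LUM made up most of it, and LUM, FAP, DCN and PDGFRB are also members of the mesenchymal list. In control FAP (0.0566 CPM) and DCN (0.0264) lay near or under the counting floor, and COL3A1, PDGFRA and PDGFRB at 0.205 to 0.270. Such genes may have passed the filter only through the groups in which they were high, so the count and median are descriptions. Of 10 endothelial markers 4 were tested and 3 were higher, while PECAM1, CDH5, VWF and KDR were not among the genes shared by the tables. Of 10 leukocyte markers 5 were tested, 2 higher and 1 lower, and PTPRC and CD3E were not among the shared genes. Their part in the results was not tested. Among 12 tested markers of the line itself 5 were higher and 6 lower, the latter including AKR1B10, GPX2, AKR1C1 and FOXA2.

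Rises of at least 2-fold were concentrated in low and GC-rich genes. In the lowest quartile of level 33.5% of protein-coding genes were at least 2-fold higher, against 7.13% in the highest; a low gene reaches the filter more easily when 1 group is high. By GC content of the longest transcript, the share rose from 8.84% in the lowest quartile through 11.8% and 16.2% to 21.9% in the highest, while falls of at least 2-fold stayed between 5.34 and 5.75%. The part of library composition in this trend was not tested. Chromosome 6, with 11.2% of its protein-coding genes at least 2-fold lower against 5.53% of all, came to 5.96% without genes of histone symbols.

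**Figure D5:**
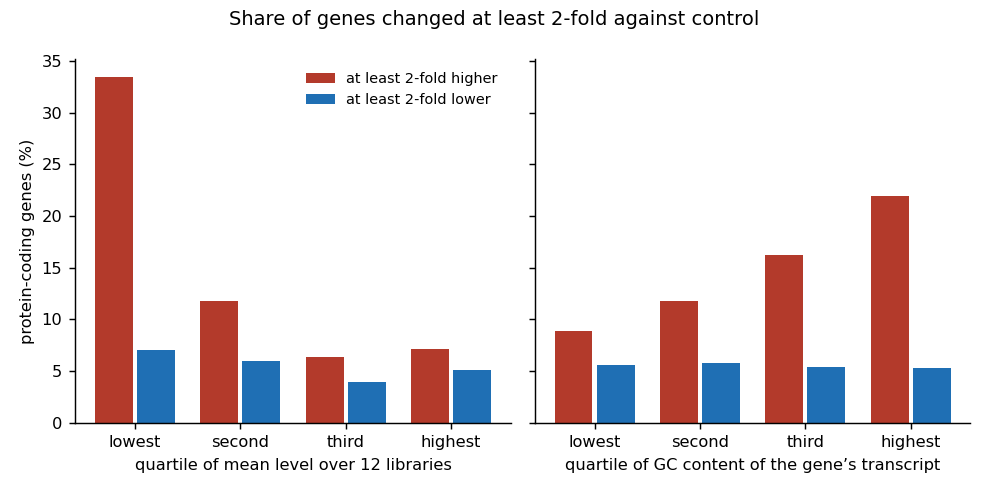
Percent of tested protein-coding genes at least 2-fold higher (red) or lower (blue) with both agents than in control, by quartile of mean level (left) and of GC content of the longest transcript (right). Rises are most frequent in the lowest level quartile (33.5%) and the highest GC quartile (21.9%).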

How the data were processed

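Per the labels, A549 cells of passages 5 to 10 gave stranded total RNA libraries read as pairs of 75 bases. The submitters' processing notes name bcl2fastq, HISAT2, limma and hg38; their versions, the annotation, and the counting tool with its strand setting were not given in the sources used here. The deposited tables hold raw counts per gene, from the authors, and every gene in them exceeds 0.1 CPM in 4 libraries or more. Another 32 columns of per-library values were not used, and mitochondrially encoded genes were not analysed here. Both tables were joined on gene identifier; the TGF-β1 counts were identical in all 23771 shared genes, and the 974 genes found only in the TGF-β1 and acetate table (median 0.215 CPM with both agents) were left out. GENCODE release 29 gave gene types, transcript lengths and GC content for 99.1% of genes.

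All 12 libraries were fitted with edgeR 4.0.16 in R 4.3.3 (filterByExpr with minimum count 10 and total 15, TMM, glmQLFit, glmQLFTest). Tests were two-sided, and p-values were adjusted by Benjamini-Hochberg over 22742 genes, with a threshold of 0.05. Standard errors and 95% intervals come from limma 3.58.1 (voom). Levels are CPM with TMM totals, as mean ± SD (n = 4). On simulated counts 197 of 200 genes changed by 2-fold were recovered, with 19 false calls among 21730 genes. The 200 were drawn from genes with a control mean above 1 CPM, and all other genes were left unchanged. In the real comparison 70.6% of genes were called. The simulation therefore does not cover recovery of lower genes or scaling under so many changes. Lists of genes and the genes described were chosen with earlier results of these data known. The text names, by rule, the 12 largest rises and falls at or above the median level, 3 genes of smallest p in each list, genes near or across control after a TGF-β1 change, 3 long noncoding genes a side and a fixed set; further members of the lists are named as examples, chosen after their values were seen. Some genes covered by this rule are not reported here but stay in every count. Alternatives were library totals, RLE size factors, DESeq2 1.42.0, limma-voom, no filter or a stricter one, a fit of 8 libraries, and leaving out each of the 8.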

Additional observations from a re-analysis of the deposited data

Results flagged for a closer look

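In 360 groups of 4 libraries (180 named genes, control and both agents) 20 had 1 library far from the other 3; chance flags about 1 in 20 groups. Library S24 of the cells with both agents was high for IGFL3 (12.4 CPM, the others up to 11.9), TRIB3 (50.1), ATP5B (463), C1orf116 (14.6), AKR1B1 (2439, the others up to 2105) and CD9 (87.2). In the same group S25 was low for CYP4F3 (0.801) and high for SUCNR1 (119.9), S23 was high for PPFIBP2 (3.77) and S22 was low for HMGCS1 (79.7). Control library S2 was high for ZMAT3 (23.4) and FN1 (459.7, the others up to 383) and low for TAGLN (8.21), SLC16A3 (45.4), E2F8 (10.3) and ATP6V0D1 (41.9). Control library S1 was high for SERPINE2 (51.7), STARD4 (27.6) and SLC16A1 (140.4) and low for AC006262.4 (0.86). Apart from C1orf116, which did not pass with all libraries, the groups did not overlap in these genes, and each call held without the library named.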

How the results depend on the processing

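The count of genes that differed from control stayed between 14192 (stricter filter, at least 1 CPM in 4 libraries, fewer genes tested) and 16148 (no filter), with 15688 by DESeq2. Lower genes outnumbered higher ones with DESeq2 (7938 against 7750), RLE factors (8085 against 7922), the fit of 8 libraries (8002 against 7753), the stricter filter (7104 against 7088) and without S2 (7933 against 7879), whereas library totals gave 7237 lower and 8741 higher. Genes at least 2-fold different ran from 3297 under the stricter filter to 4664 without S2 and without S24, with more higher than lower in each setting. Leaving out 1 library at a time gave 15463 to 15835 genes, 7879 to 8080 higher and 7549 to 7933 lower, and at 2-fold 4511 to 4664, 3255 to 3372 higher and 1256 to 1302 lower. Of 41 list medians 37 kept their sign in every setting. The epithelial junction median ran from -0.0053 without control library S2 to 0.133 without S3 and 0.137 under the stricter filter. That of glycolysis became -0.0102 with DESeq2, -0.00744 in the fit of 8 libraries, -0.00931 with RLE factors, -0.0663 without S1, -0.0865 without S4 and -0.0188 without S22, rising to 0.0409 without S3 and 0.0556 with library totals. That of the TCA cycle became 0.012 with library totals, and that of leukocyte markers -0.0411 without S1, -0.0997 without S2 and -0.164 without S24, up to 0.312 without S3 and 0.484 under the stricter filter. The cause was not tested. Ribosomal protein genes counted as higher ran from 0 to 4. CREM, close to the threshold, lost its call in 10 settings (log2 fold change 0.05 without S2, edgeR adjusted p = 0.25), PLEKHH2 in 4 (-0.14 without S2, edgeR adjusted p = 0.0774), and C1orf116 passed in 6. No paired analysis was possible because the count columns carry no replicate number. Genes with control levels near 0.0566 to 0.0865 CPM have fold changes limited by counting error.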

Other observations

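Host genes of small nucleolar RNAs were low, a set picked after its values were seen. Of 23 tested genes named SNHG with a number, GAS5 or ZFAS1, 21 were lower and 2 higher, with a median log2 fold change of -0.91 (-0.20 with TGF-β1). ZFAS1 held 181, 235, 216 and 206 CPM in control and 44.1, 48.6, 49.7 and 44.2 with both agents, SNHG1 fell from 287 ± 16.3 to 77.7 ± 1.93 CPM, and GAS5 from 296.5 ± 21.2 to 92.9 ± 3.06. SNHG23 (3.59) and SNHG14 (0.41) rose. Small nucleolar RNA genes themselves were lower in 37.0% of 308 cases and higher in 12.7%, against 34.4% and 36.1% of all genes. Only 2.6% of them were at least 2-fold lower, against 5.47% of all genes.

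Neuronal and synaptic genes had 17 of 26 higher and 7 lower, with a median of 0.84 (-0.03 with TGF-β1). KIF5C, a neuronal kinesin, rose from 0.655 ± 0.191 to 9.95 ± 0.324 CPM, and VGF (3.69), KIF1A (2.81), RAB3A (2.75) and MAPT (2.39) rose as well. CPLX2, a regulator of vesicle release and abundant in untreated cells, held 1030 to 1087 CPM in control and 98.5 to 110 with both agents. Lysosomal genes had 20 of 26 higher and 5 lower, by a median of 0.48, with ATP6V0D1 (1.09), a proton pump subunit, and CTSH (1.19) among them and SQSTM1 (-1.17) lower. APOE, a lipid carrier, held 2.03 to 2.17 CPM in control, 2.05 to 2.60 with TGF-β1 and 22.9 to 31.4 with both. FBXO2, a ubiquitin ligase subunit that binds glycoproteins, held 3.17 to 3.65, 2.25 to 2.76 and 39.7 to 46.5 CPM in the same order. The metallothioneins MT1X (1.30) and MT2A (1.24) rose. Among long noncoding genes LINC00704 rose from 0.639 to 0.778 CPM in control to 40.9 to 43.4.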
